A study of Mus musculus with 30 samples.

Results

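The interferon-stimulated genes described here are 35 mouse genes that cells switch on when they sense type I or type II interferon. They were chosen by name, and all 35 were found among the 14118 genes of the deposited count matrix through their Entrez identifiers. They were followed over 6 stromal cell populations sorted from each of 5 mammary adenocarcinomas, 1 per mouse, giving 30 bulk RNA-seq libraries. The mice were of the strain FVB/N-Tg(MMTVPyVT)634Mul/J, which carries a transgene in which the mouse mammary tumour virus promoter drives the polyoma virus middle T antigen in mammary epithelium. All tumours had reached 750 mm3, no tumour-free tissue is compared here, and the labels used here name no treatment or age. CAF1 are cancer-associated fibroblasts sorted as CD45- CD31- CD90+ CD34-, and CAF2 are the CD34+ cells of the same CD90+ gate. EC are endothelial cells, CD45- CD31+. The tumour-associated macrophages (TAMs, CD45+ F4/80+) were sorted as CD206hi (CD206+ with low MHC class II), CD206neg (CD206- with low MHC class II) and CD206pos (CD206+ with high MHC class II). Each group holds 5 libraries, from tumours 5, 6, 8, 10 and 11, and values listed in a row below follow that order.

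Type I interferons bind the receptor made of IFNAR1 and IFNAR2, and JAK kinases then activate a transcription factor complex, of which STAT2 and IRF9 are parts, that binds the interferon-stimulated response element in target promoters. Type II interferon (interferon gamma) binds IFNGR1 and IFNGR2 and acts on promoters with a gamma-activated site and through the transcription factor IRF1. The targets include proteins that bind or cut viral RNA (the IFIT and OAS families, ISG20), restriction factors (MX proteins, tetherin, viperin), GTPases that act on intracellular vacuoles (GBP and IRG families), and the sensors and transcription factors that feed the response itself. In tumours such genes are known to be expressed by stromal and immune cells without any virus.

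Libraries held 6292411 to 11957076 counts, of which the 35 members took 3983 to 12745. A count of 3, the upper limit that a count of 0 allows at 95% confidence, corresponded to 0.251 to 0.477 CPM (counts scaled to the library total) before scaling, counting error only. Summed markers of each sorted type were high in that type: endothelial markers were at 1232 to 3230.3 CPM in EC and at most 84.0 CPM elsewhere, and the 5 macrophage markers were at 7108 CPM or more in all 15 TAM libraries and at most 22 CPM elsewhere. Fibroblast markers were at 16042 CPM or more in CAF1 and CAF2 and at most 379 CPM elsewhere. Libraries labelled CD206neg from tumours 6 and 8 go against their label: their columns are named for high MHC class II, and their summed MHC class II genes were at 117979.6 and 25842 CPM, against 1286, 9777 and 14101 CPM in the CD206neg libraries of tumours 5, 10 and 11. CD206hi, sorted for low MHC class II, ran from 323 to 3783 CPM and CD206pos, sorted for high, from 7291 to 60555 CPM, so the CD206neg libraries of tumours 10 and 11 also lay above every CD206hi library and within the CD206pos range. Results that use CD206neg are given with and without the libraries of tumours 6 and 8, whose column names differ from their labels. This is done where leaving them out loses a member's call or moves a count by over 1.5 times.

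Promoters are shown first because the response element and the gamma-activated site are sequences through which interferons are known to act on target genes. Of the 35 members, 27 had an entry in RefSeq's promoter table (GRCm38.p6, 250 bases before to 50 after the annotated start). The core of the response element was searched on both strands as GAAA, any 2 bases and GAAA, and 14 of the 27 (51.9%) held it, against 3.99% of the 27025 genes in the table. The core of the gamma-activated site, TTCNNNGAA, was found in 8 of the 27 (29.6%), against 9.55% of the genes in the table, and Gbp7, Oas1a, Bst2 and Igtp held both. In Bst2 the gamma-activated site match overlaps the response element core. A match is a description of these letters and not evidence of binding. Below are the windows around the core, upstream of the start, in the 8 members that held it and had the largest F statistic in the test between tumours described further down. They run 5′ to 3′ on the strand of the gene, with the core in capitals (TTTC, 2 bases and TTTC is the same core on the other strand).
Bst2: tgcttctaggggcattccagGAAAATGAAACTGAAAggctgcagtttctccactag
Irgm1: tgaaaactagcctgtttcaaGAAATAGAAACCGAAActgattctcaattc
Gbp7: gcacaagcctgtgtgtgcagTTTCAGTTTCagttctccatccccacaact
Ifit3: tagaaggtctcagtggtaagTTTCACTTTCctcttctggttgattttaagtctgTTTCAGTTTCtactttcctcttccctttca
Isg15: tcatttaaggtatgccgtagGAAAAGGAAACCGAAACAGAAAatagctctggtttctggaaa
Gbp2: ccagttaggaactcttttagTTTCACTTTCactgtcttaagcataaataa
Ifit1: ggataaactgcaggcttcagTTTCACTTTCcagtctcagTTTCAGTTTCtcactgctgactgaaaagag
Stat2: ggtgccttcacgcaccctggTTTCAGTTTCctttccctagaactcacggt
The windows lie at chr8:71537567-71537622 (minus strand) for Bst2, chr11:48871421-48871470 (minus strand) for Irgm1, chr3:142530263-142530312 (plus strand) for Gbp7, chr19:34583353-34583436 (plus strand) for Ifit3, chr4:156200855-156200916 (minus strand) for Isg15, chr3:142620584-142620633 (plus strand) for Gbp2, chr19:34640765-34640833 (plus strand) for Ifit1 and chr10:128270256-128270305 (plus strand) for Stat2. In Bst2, Irgm1 and Isg15 the cores are overlapping repeats, in Ifit1 and Ifit3 they are separate copies, and in Gbp7, Gbp2 and Stat2 there is 1.

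**Figure D1:**
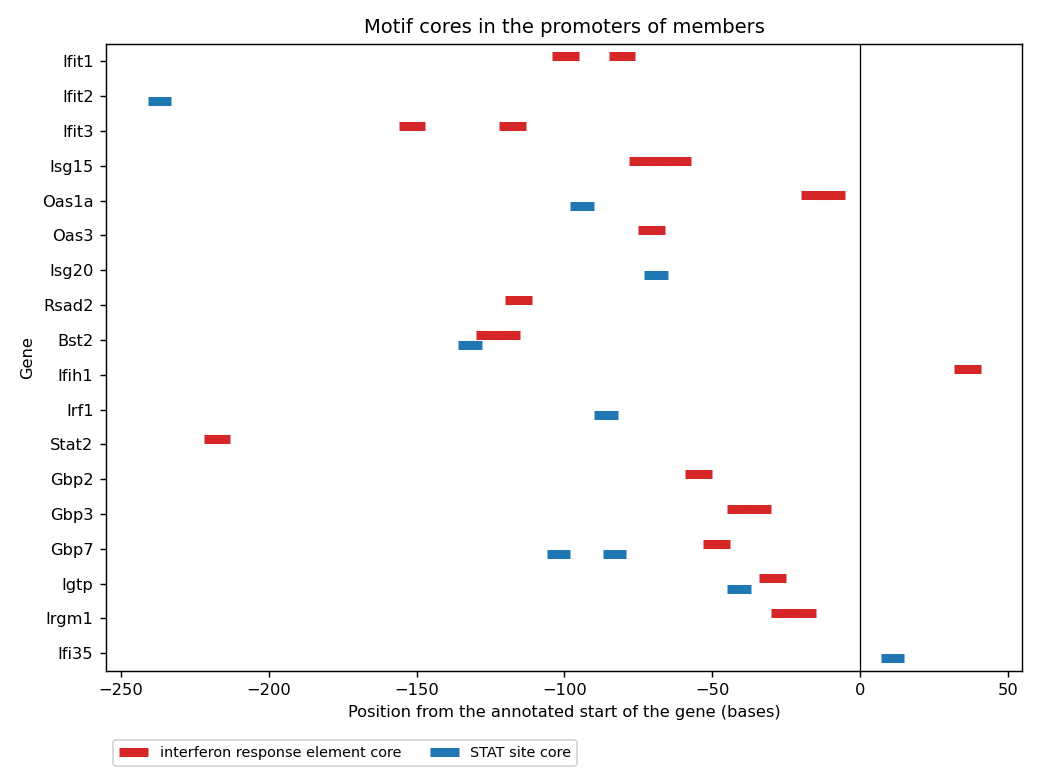
Position of each response element core (red) and gamma-activated site core (blue) in the promoters of the 18 members that held either, in bases from the annotated start (0). Of the 14 members with the response element core, 13 have it upstream of the start, and in Ifih1 it lies 32 to 41 bases after it.

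Level, compared per kilobase of exon so that genes of different length can be set side by side, was led by the same few members in every population. Irf1 (interferon regulatory factor 1, chr11:53770014-53778374) was first in both fibroblast groups at 101 CPM per kb in CAF1 and 74.0 in CAF2. Bst2 (tetherin, which holds budding virus at the membrane, chr8:71534255-71537472) was first in EC at 62.2 and in CD206hi, CD206neg and CD206pos at 69.9, 96.5 and 78.5 CPM per kb. Isg15, the ubiquitin-like modifier, came next or after one other member in all 6. The median member was at 3.07 to 5.33 CPM per kb, and 5 to 9 members reached 10 CPM per kb in any population. Summed over the 35 members the level, on TMM-scaled totals, ran from 321 CPM per kb in EC to 396 in CD206pos. At the low end Oas3 and Mx1 were near the limit of detection outside the macrophages, as was Oas2 in some CAF1 and EC libraries but not in CAF2. By mean CPM, 22 of the 35 members were highest in one of the 3 macrophage groups, 6 in CAF2, 5 in EC and 2 in CAF1. Macrophages are 3 of the 6 groups, and 13 members were lowest in one of them, 10 in CAF1, 7 in EC and 5 in CAF2. The shares over all genes were not computed. The sums and the order of the populations depend on the scaling of the libraries. With library totals alone the median member in EC against TAM moved from -0.21 to 0.56 log2. The sums and the order were not recomputed under that scaling. Gbp3 in CD206neg, Zbp1 in CAF2 and Ifi44 in EC were the 3 members whose highest group did not overlap with any of the other 5.

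**Figure D2:**
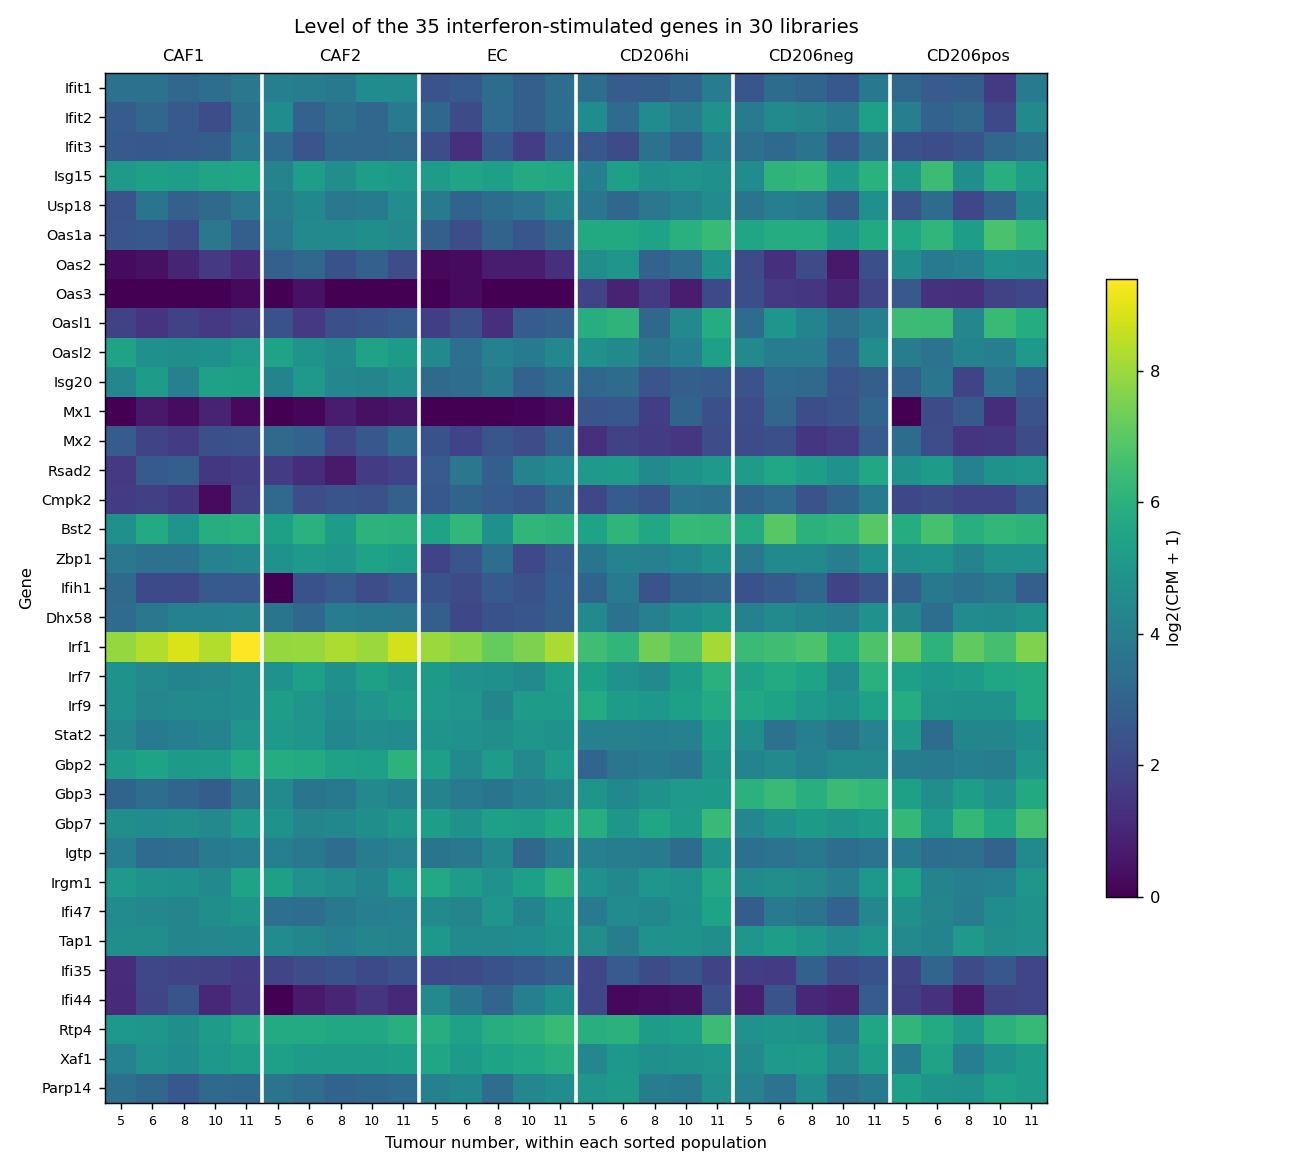
Level of each of the 35 members (rows) in each of the 30 libraries (columns, tumour number within population), as log2(CPM + 1). Irf1 is the brightest row, and Oas1a, Oasl1, Oas3 and Rsad2 are brighter in each of the 15 macrophage libraries than in any of the 10 fibroblast libraries.

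CAF1 against CAF2 asks whether the fibroblast subsets differ in these genes. Of the 33 members tested, 9 were lower in CAF1 and 1, Ifi47, was higher, in edgeR's quasi-likelihood test (adjusted p under 0.05, Benjamini-Hochberg, 12149 genes). That is 30.3% of the members, where 19.5% of all genes passed (10.9% higher and 8.59% lower in CAF1). The median member was at -0.33 log2 and the median gene at 0.01. Fewer cells of a type and less RNA per cell cannot be told apart in bulk samples, here and below. Oas3 and Mx1 were too low to be tested, with at most 3 and 8 counts in any fibroblast library.
Oas2, which makes the second messenger that activates RNase L (chr5:120730333-120749886), was at 0.204, 0.336, 0.979, 1.98 and 1.24 CPM in CAF1 and 6.44, 7.88, 4.11, 6.42 and 3.70 CPM in CAF2. Every CAF2 library was above every CAF1 library (log2 fold change -2.60 ± 0.54 SE, adjusted p = 0.0044). Oas1a, of the same family and chromosome, was at 4.62, 5.05, 3.43, 12.4 and 6.20 CPM in CAF1 and 12.3, 20.7, 21.5, 24.4 and 20.3 CPM in CAF2 (log2 fold change -1.64 ± 0.32 SE, adjusted p = 0.00339). Only CAF1 of tumour 10 reached into the CAF2 range, just above CAF2 of tumour 5. Oas genes lie side by side, as do Ifit and Gbp genes, and have near copies. How the authors' counting treated reads shared between copies or strands is not given in the sources used here, so values of single family members are uncertain to that extent. Zbp1, a sensor of Z-form nucleic acids that can trigger necroptosis (chr2:173206612-173218959), was at 12.2, 10.3, 10.8, 17.1 and 19.7 CPM in CAF1 and 27.4, 32.4, 29.7, 42.4 and 36.4 CPM in CAF2. The groups did not overlap (log2 fold change -1.26 ± 0.21 SE, adjusted p = 0.000955). These 3 calls held under every one of the 23 alternatives run.
Cmpk2, a mitochondrial nucleotide kinase, was also lower in CAF1 (1.83 ± 0.935 against 5.38 ± 1.97 CPM, SD, n = 5; log2 fold change -1.54 ± 0.49 SE, adjusted p = 0.0413), as was Gbp3, a guanylate-binding GTPase (8.41 ± 2.53 against 16.8 ± 4.29 CPM, log2 fold change -0.99 ± 0.24 SE, adjusted p = 0.0116). Usp18, which removes ISG15 and damps the type I receptor, was at 8.56 ± 3.35 against 16.8 ± 4.52 CPM (log2 fold change -0.97 ± 0.29 SE, adjusted p = 0.033). Ifit1, which binds viral RNA caps, was at 10.2 ± 1.72 against 17.6 ± 4.40 CPM (log2 fold change -0.77 ± 0.20 SE, adjusted p = 0.018). Rtp4 (log2 fold change -0.61 ± 0.17 SE, adjusted p = 0.0248) was the last of the 8 largest. The call on Irf7, the transcription factor that amplifies type I interferon, was the least steady of the 9, passing at an adjusted p of 0.0432 and lost under 16 of its 23 alternatives, the tumour block among them (adjusted p = 0.0648). With all 30 libraries in the fit 5 members passed, and leaving out a tumour or library gave 5 to 10, Cmpk2 and Usp18 each falling out under 12 of 23 alternatives.
Ifi47, an IRG GTPase induced mainly by interferon gamma, went the other way, at 22.3, 19.2, 18.4, 24.7 and 28.3 CPM in CAF1 and 9.82, 9.45, 13.1, 15.4 and 16.7 CPM in CAF2. Here every CAF1 library was the higher (log2 fold change 0.82 ± 0.20 SE, adjusted p = 0.0117), though the call was lost with all 30 libraries in the fit (adjusted p = 0.0581) and when libraries were scaled by their totals alone (adjusted p = 0.0820). In all, 6 of the 33 members had groups that did not overlap (18.2%), where 15.8% of all genes did. Among the 8 members that lean towards type II interferon 1 was higher and 1 lower, and among the 25 others tested 0 were higher and 8 lower. The difference between these 2 lists was not tested. Markers of pericytes moved with the fibroblast groups, all 5 of them detected in both: their sum was 383 to 1219 CPM in CAF1 and 4.43 to 29.2 CPM in CAF2. All 3 myoepithelial markers were likewise at a sum of 80.4 to 2716 CPM in CAF1 and 0.0713 to 9.21 CPM in CAF2, and luminal epithelial markers at 193 to 1572 and 1.29 to 432 CPM. Their part in these differences was not tested.

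Macrophage groups were compared in pairs. In CD206hi against CD206pos, which share CD206 and differ in MHC class II, 0 of 35 members passed edgeR's test, where 0.190% of all genes passed (0.00905% higher and 0.181% lower), and 0 had groups that did not overlap (1.07% of all genes). At an unadjusted p under 0.05 there were 2 of 35 members (5.71%) and 7.24% of all genes, DESeq2 also called 0 members, and the lowest adjusted p of a member was 0.514, for Cmpk2. In CD206hi against CD206neg 3 members were higher and 1 lower (11.4% of 35, where 10% of all genes passed, 6.14% higher and 3.90% lower). In CD206pos against CD206neg 5 were higher and 2 lower (20%, where 14.7% of all genes passed, 8.85% higher and 5.85% lower). Both comparisons share the CD206neg libraries. With tumour as a block, 11 members passed in CD206pos against CD206neg, 7 higher and 4 lower (31.4%, where 25.3% of all genes passed under the same block). Scaled by library totals alone, the split was 6 higher and 0 lower.
Oas2 showed the widest gap between the gates. It was at 23.9, 30.7, 6.69, 9.39 and 26.9 CPM in CD206hi, 23.5, 13.5, 15.7, 26.1 and 23.3 in CD206pos and 3.47, 1.45, 3.52, 0.557 and 3.93 in CD206neg. Both CD206-positive groups lay wholly above CD206neg (log2 fold change 2.89 ± 0.47 SE, adjusted p = 0.000516 for CD206hi, and log2 fold change 2.95 ± 0.47 SE, adjusted p = 0.00038 for CD206pos). Gbp3 ran opposite, at 62.4, 79.8, 60.0, 84.5 and 73.2 CPM in CD206neg, 28.5, 20.1, 26.8, 33.0 and 34.1 in CD206hi and 39.1, 23.9, 36.2, 26.3 and 51.5 in CD206pos. No library of either CD206-positive group reached the lowest CD206neg library (log2 fold change -1.33 ± 0.21 SE, adjusted p = 0.000366 for CD206hi, and log2 fold change -1.03 ± 0.20 SE, adjusted p = 0.00242 for CD206pos). Under library totals alone the Gbp3 call in CD206pos against CD206neg was lost, and it held under the other 28 alternatives. The Oas2 calls held under all 29.
Oasl1, an OAS-like protein that restrains translation of Irf7 mRNA, was at 86.8, 84.1, 19.4, 82.7 and 55.4 CPM in CD206pos and 9.07, 30, 17.8, 10.2 and 15.7 CPM in CD206neg. The tumour 8 library of CD206pos lay within the CD206neg range and the other 4 above it (log2 fold change 2.01 ± 0.50 SE, adjusted p = 0.0122). Parp14, a mono-ADP-ribosyltransferase, was at 38.7, 28.5, 26.8, 40.9 and 35.1 CPM in CD206pos and 16.8, 11.1, 23.1, 10 and 13.8 CPM in CD206neg, without overlap (log2 fold change 1.17 ± 0.28 SE, adjusted p = 0.00888). Gbp7 (log2 fold change 1.17 ± 0.29 SE, adjusted p = 0.0114) and Rtp4 (log2 fold change 1.11 ± 0.30 SE, adjusted p = 0.0192) were higher and Cmpk2 (log2 fold change -1.28 ± 0.38 SE, adjusted p = 0.0294) was lower in CD206pos than in CD206neg. Rtp4 (log2 fold change 1.02 ± 0.30 SE, adjusted p = 0.0378) and Ifi47 (log2 fold change 1.12 ± 0.33 SE, adjusted p = 0.0373) were higher in CD206hi than in CD206neg.
Without the CD206neg libraries of tumours 6 and 8, Oas2 and Gbp3 were the 2 members still called in CD206hi against CD206neg. In CD206pos against CD206neg 5 were called, Gbp7 and Rtp4 having dropped out. The shares of all genes called without these libraries are not given here, so the drop cannot be read as particular to the members. Of members whose libraries did not overlap there were 2 in CD206hi against CD206neg (10.2% of all genes) and 3 in CD206pos against CD206neg (11.6% of all genes). Dendritic cell markers, 4 of 5 in the matrix and none at 0 throughout, summed to 18.9 to 76.2 CPM in CD206neg, 5.15 to 16 in CD206hi and 8.36 to 28.2 in CD206pos. Monocyte markers (3 of 4 in the matrix) ran from 227 to 506 CPM in CD206pos, 80.4 to 193 in CD206hi and 10.6 to 57.4 in CD206neg. Their part in these differences was not tested.

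**Figure D3:**
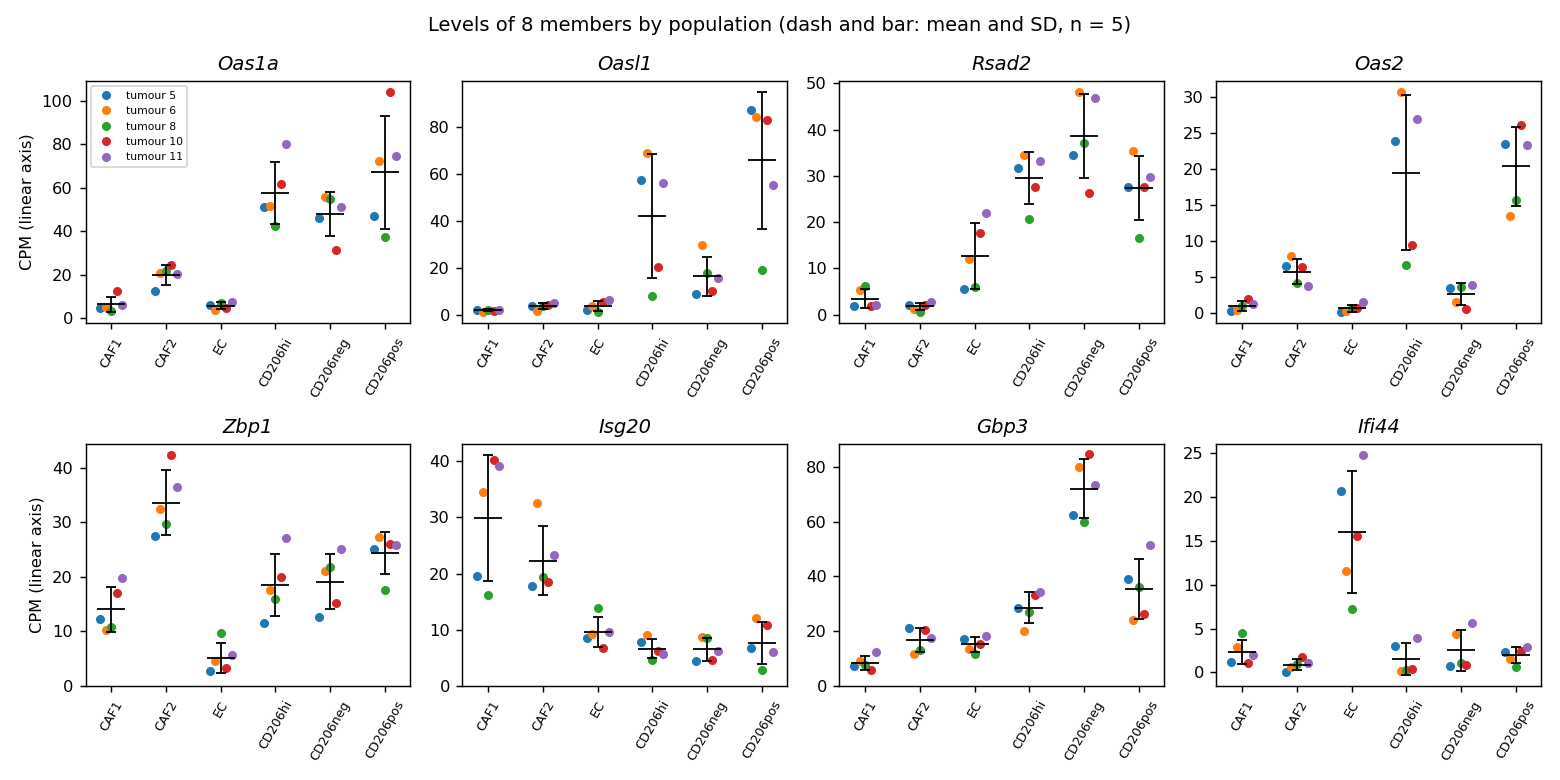
CPM of 8 members in the 6 populations, 1 point per tumour, with the mean and SD (n = 5) as dash and bar on linear axes. Oas1a, Oasl1, Rsad2 and Gbp3 have higher means in each macrophage group than in the other populations, Gbp3 being highest in CD206neg. Oas2 is high in CD206hi and CD206pos. Zbp1, Isg20 and Ifi44 have their highest means in CAF2, CAF1 and EC.

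Fibroblasts against macrophages, the mean of CAF1 and CAF2 against the mean of the 3 TAM groups, had the most calls: 6 of 35 members were higher in fibroblasts and 17 lower. At 65.7% the share was near the 68.1% of all genes that passed (37.3% higher, 30.8% lower). Scaled by library totals alone, 10 were higher and 9 lower, and that scaling moved the median of all genes from 0.10 to 0.41 log2. Of the OAS family 4 of 5 members were lower in fibroblasts and Oasl2 was higher.
Rsad2 (viperin, a radical SAM enzyme that blocks viral RNA synthesis, chr12:26442743-26456452) was at 1.97, 5.38, 6.12, 1.87 and 2.12 CPM in CAF1 and 2.17, 1.33, 0.588, 2.21 and 2.68 in CAF2. In the macrophages it was at 31.7, 34.6, 20.7, 27.6 and 33.2 CPM in CD206hi, 27.7, 35.4, 16.5, 27.7 and 29.8 in CD206pos and 34.4, 48.1, 37.1, 26.2 and 46.9 in CD206neg. Every macrophage library was above every fibroblast library (log2 fold change -3.63 ± 0.28 SE, adjusted p = 1.03e-12).
Oas1a was at 51.2, 51.6, 42.6, 61.6 and 80.0 CPM in CD206hi, 47.2, 72.2, 37.1, 104 and 74.5 in CD206pos and 45.9, 55.6, 55, 31.2 and 51.1 in CD206neg, all above the fibroblast values given earlier (log2 fold change -2.34 ± 0.20 SE, adjusted p = 1.91e-11). Oasl1, at 2.51, 1.68, 2.53, 1.98 and 2.48 CPM in CAF1 and 4.10, 1.94, 3.94, 4.49 and 5.37 in CAF2, was likewise lower in every fibroblast library than in any macrophage library (log2 fold change -3.57 ± 0.34 SE, adjusted p = 1.61e-10). Oas3 (chr5:120753098-120777684) had a total of 1 count over the 5 CAF1 libraries, 3 over CAF2 and 2 over EC, and mean levels of 1.91 ± 1.14, 2.29 ± 1.10 and 2.75 ± 1.49 CPM (SD, n = 5) in CD206hi, CD206neg and CD206pos. It passed the test in both comparisons with macrophages, and no fold is given against so few counts. Mx1, a GTPase that blocks viral ribonucleoproteins, was at most 0.879 CPM in fibroblasts, and in macrophages at 0 CPM in CD206pos of tumour 5 and 1.37 to 7.50 CPM in the other 14 libraries (log2 fold change -3.53 ± 0.57 SE, adjusted p = 3.14e-06).
Oas2 (log2 fold change -2.15 ± 0.35 SE, adjusted p = 3.83e-06), Gbp3 (log2 fold change -1.82 ± 0.15 SE, adjusted p = 5.99e-12) and Parp14 (log2 fold change -1.46 ± 0.18 SE, adjusted p = 2.82e-08) complete the 8 largest of the 17, although CAF2 was above CD206neg in mean Oas2 and the fibroblast and macrophage libraries overlapped in all 3.
The 6 members higher in fibroblasts were led by Isg20, an exonuclease acting on single-stranded RNA. It was at 19.5, 34.5, 16.2, 40.3 and 39.1 CPM in CAF1 and 17.7, 32.6, 19.4, 18.5 and 23.3 in CAF2, against a mean of 6.63 ± 1.73 CPM in CD206hi, 7.66 ± 3.75 in CD206pos and 6.46 ± 2.05 in CD206neg (SD, n = 5). Every fibroblast library was above every macrophage library (log2 fold change 1.91 ± 0.20 SE, adjusted p = 1.12e-09). Irf1 was at 240.0, 321, 466, 315 and 674 CPM in CAF1 and 238, 249, 304, 250.3 and 430.4 in CAF2, and at 90.6, 72.2, 164, 121 and 282 in CD206hi, 148, 66.3, 135, 96.6 and 192 in CD206pos and 83.4, 91.7, 107, 55.9 and 108 in CD206neg. Only the CD206hi library of tumour 11 reached into the fibroblast range (log2 fold change 1.54 ± 0.21 SE, adjusted p = 1.24e-07). Gbp2, a GTPase induced by interferon gamma, was higher in fibroblasts without overlap (log2 fold change 1.39 ± 0.17 SE, adjusted p = 2.05e-08). Ifit1 (log2 fold change 0.80 ± 0.23 SE, adjusted p = 0.00265), Oasl2 (log2 fold change 0.75 ± 0.21 SE, adjusted p = 0.00202) and Mx2 (log2 fold change 0.64 ± 0.27 SE, adjusted p = 0.0366) were the other 3, the last lost under 18 of its 44 alternatives. Without CD206neg of tumours 6 and 8 the calls on Mx2 and on Ifih1, lower in fibroblasts, were lost. In all, 6 members did not overlap between fibroblasts and macrophages (24.5% of all genes).

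**Figure D4:**
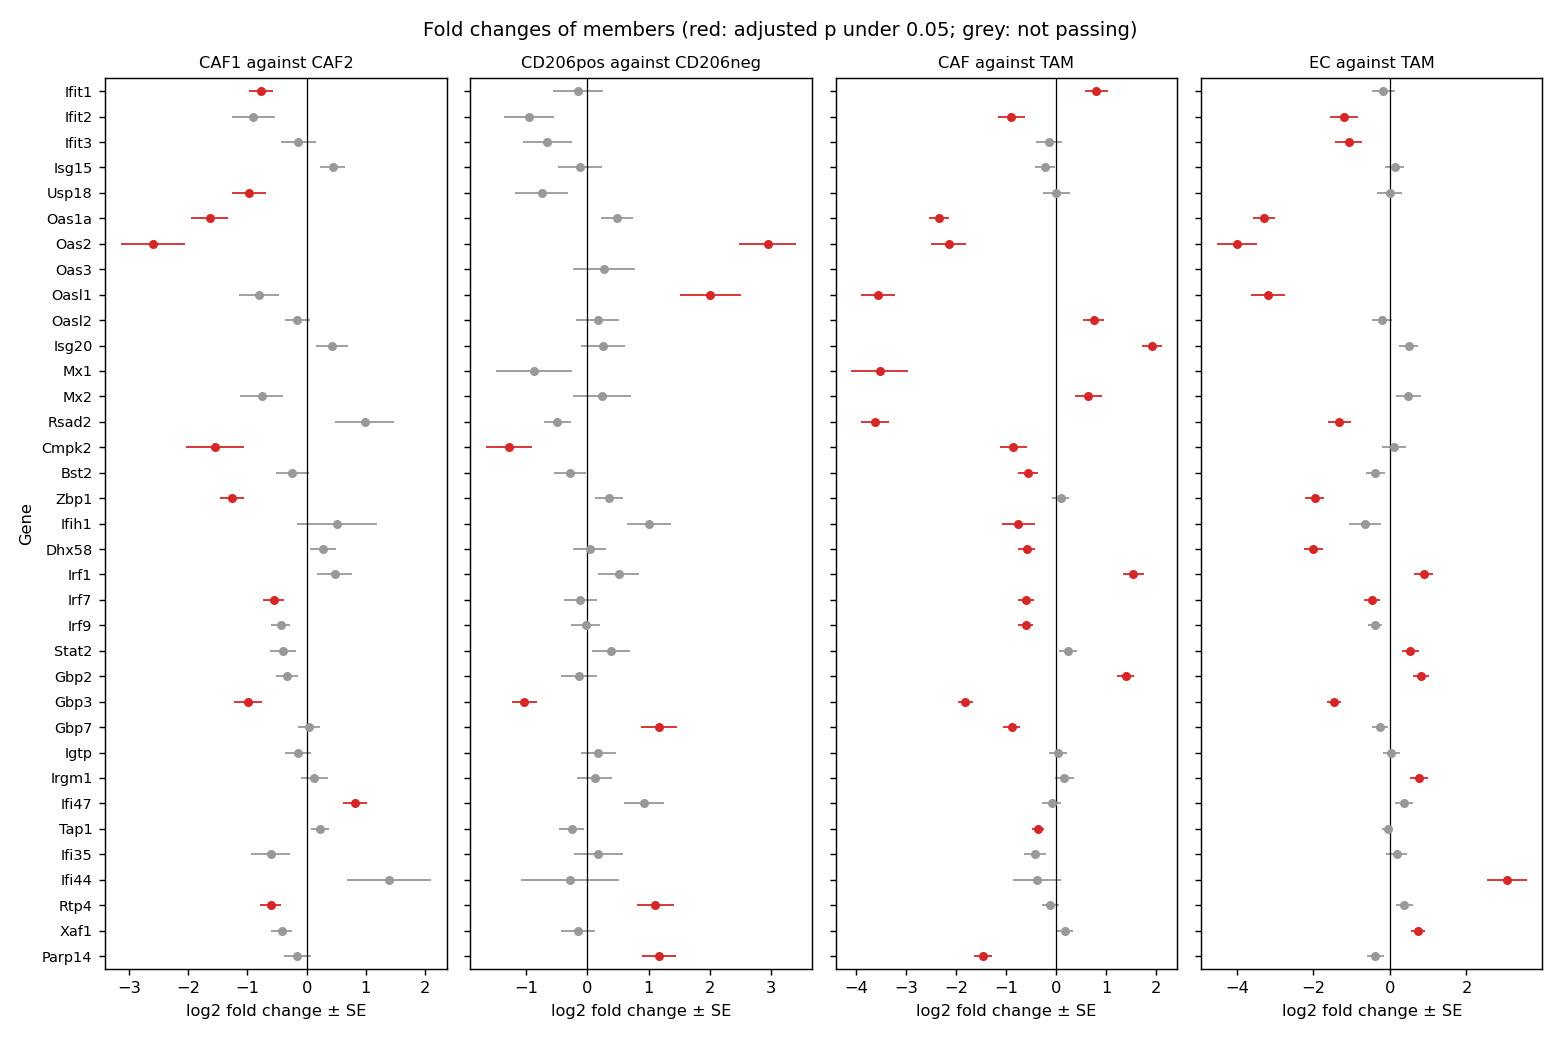
log2 fold change of each member with its SE in 4 comparisons (edgeR; first group minus second), red where the adjusted p was under 0.05 and grey where not. Oas3 and Mx1 are left out where a group had at most 3 counts in every library or the gene was not tested. Red points lie mostly below 0 in CAF1 against CAF2 (9 of 10), in CAF against TAM (17 of 23 called, Oas3 not drawn) and in EC against TAM (12 of 18 called, Oas3 and Mx1 not drawn). With libraries scaled by their totals alone the last 2 become 9 of 19 and 8 of 25.

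Endothelial cells against macrophages gave 6 members higher and 12 lower in EC, 51.4% of the 35, where 61.2% of all genes passed (36.5% higher, 24.7% lower). With library totals alone the split was 17 higher and 8 lower, the median of all genes moving from 0.17 to 0.89 log2 and that of the members from -0.21 to 0.56, and Irf7, lower in EC in the reported fit, changed sign. Of the OAS family 4 of 5 members were lower in EC, Oasl2 being at -0.21 ± 0.27 SE on the log2 scale (adjusted p = 0.515). Oas2 was at 0.155, 0.196, 0.671, 0.633 and 1.44 CPM in EC (log2 fold change -4.00 ± 0.53 SE, adjusted p = 1.45e-07), Oas1a at 6.11, 3.63, 6.93, 4.67 and 7.62 (log2 fold change -3.29 ± 0.29 SE, adjusted p = 4.41e-11) and Oasl1 at 2.32, 3.93, 1.45, 5.61 and 6.35 (log2 fold change -3.19 ± 0.45 SE, adjusted p = 3.95e-07). Mx1 had 3 counts in all over the 5 EC libraries, and no fold is given. The RIG-I-like receptor Dhx58 (LGP2) was at 6.18, 3.14, 4.19, 4.67 and 6.27 CPM in EC (log2 fold change -2.0 ± 0.25 SE, adjusted p = 3.39e-08), and Zbp1 was at 2.71, 4.52, 9.62, 3.24 and 5.67 CPM (log2 fold change -1.97 ± 0.25 SE, adjusted p = 7.5e-08). Both were lower in every EC library than in any macrophage library. Gbp3 (log2 fold change -1.46 ± 0.19 SE, adjusted p = 1.28e-07) completes the 8 largest.
Ifi44, a cytoplasmic protein related to GTPases (chr3:151730922-151749910), was the member that stood highest in EC, at 20.7, 11.6, 7.27, 15.6 and 24.8 CPM. Elsewhere it reached at most 5.58 CPM, so that no other library overlapped with EC (log2 fold change 3.06 ± 0.52 SE, adjusted p = 7.38e-06). Irf1 (log2 fold change 0.88 ± 0.25 SE, adjusted p = 0.00368), Gbp2 (log2 fold change 0.82 ± 0.21 SE, adjusted p = 0.00111), Irgm1 (log2 fold change 0.76 ± 0.23 SE, adjusted p = 0.00528), Xaf1 (log2 fold change 0.73 ± 0.19 SE, adjusted p = 0.00154) and Stat2 (log2 fold change 0.53 ± 0.22 SE, adjusted p = 0.0357) were the other 5 higher in EC. Without CD206neg of tumours 6 and 8 the calls on Stat2 and on Irf7, lower in EC, were lost. In all, 7 members did not overlap (26.3% of all genes). Markers of other cell types moved with this comparison: 5 of 5 luminal epithelial, 3 of 3 myoepithelial and 4 of 5 pericyte markers were higher in EC, none of them at 0 throughout EC. Luminal epithelial markers summed to 132 to 1774 CPM in EC and 22.5 to 922 in macrophages, myoepithelial markers to 42.2 to 942 and 0.479 to 25.1, and pericyte markers to 6.48 to 797 and 1.29 to 17.2. Their part in the EC results, here and against fibroblasts, was not tested.

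Against the fibroblasts, EC had 8 members higher and 5 lower than CAF1 (37.1%, where 34.7% of all genes passed, 15.9% higher and 18.8% lower), and 5 higher and 9 lower than CAF2 (40.0%, where 46.0% passed, 23.7% higher and 22.3% lower). These 2 comparisons share the EC libraries. Against CAF2, 5 of 5 luminal epithelial, 3 of 3 myoepithelial and 4 of 5 pericyte markers were higher in EC (sums in CAF2 of 1.29 to 432, 0.0713 to 9.21 and 4.43 to 29.2 CPM), and against CAF1, 3 of 5 pericyte markers were lower in EC. Library totals alone gave 15 higher and 3 lower against CAF1 and 9 higher and 5 lower against CAF2, with the median of all genes moving from 0.00 to 0.43 and from 0.05 to 0.44 log2. Ifi44 was higher in EC than in CAF1 (log2 fold change 2.76 ± 0.73 SE, adjusted p = 0.00345) and CAF2 (log2 fold change 4.14 ± 0.78 SE, adjusted p = 7.46e-05). Rsad2, at 5.57, 12.1, 6.04, 17.6 and 22 CPM in EC, was higher than in CAF1 (log2 fold change 1.83 ± 0.38 SE, adjusted p = 0.000331) and CAF2 (log2 fold change 2.79 ± 0.40 SE, adjusted p = 1.38e-06), and its mean in EC lay between the means of the fibroblast and macrophage groups, with some overlap of libraries on the side of CAF1 and of the macrophages. Parp14 was also higher than in CAF1 (log2 fold change 1.17 ± 0.27 SE, adjusted p = 0.00103) and CAF2 (log2 fold change 0.99 ± 0.27 SE, adjusted p = 0.00313). Cmpk2 was higher in EC than in CAF1 (log2 fold change 1.75 ± 0.42 SE, adjusted p = 0.00145).
Zbp1 (log2 fold change -2.69 ± 0.29 SE, adjusted p = 8.36e-09), Oas2 (log2 fold change -3.17 ± 0.56 SE, adjusted p = 2.9e-05), Oas1a (log2 fold change -1.77 ± 0.30 SE, adjusted p = 1.68e-05) and Ifit1 (log2 fold change -1.36 ± 0.35 SE, adjusted p = 0.00231) were lower in EC than in CAF2, each without overlap. Isg20, at 8.43, 9.23, 13.8, 6.80 and 9.65 CPM in EC, was lower than in CAF1 (log2 fold change -1.63 ± 0.32 SE, adjusted p = 0.000132) and CAF2 (log2 fold change -1.21 ± 0.31 SE, adjusted p = 0.00208). Dhx58 was lower too (log2 fold change -1.54 ± 0.27 SE, adjusted p = 4.3e-05 against CAF1, and log2 fold change -1.28 ± 0.27 SE, adjusted p = 0.000281 against CAF2). Members without overlap numbered 7 of 35 against CAF1 and 10 of 35 against CAF2, where 27.2% and 35.2% of all genes did not overlap. Over the 8 comparisons of populations, 33 of the 35 members were called at least once, Gbp3 and Oas2 most often with 6 each. Isg15 and Igtp were called in none. The share of all genes called at least once was not computed, but 68.1% passed in CAF against TAM alone and 61.2% in EC against TAM. Isg15 was at 39.8 ± 5.67, 29.6 ± 8.56, 44.1 ± 7.09, 26.7 ± 8.38, 52.0 ± 23.1 and 47.7 ± 24.5 CPM (SD, n = 5) in CAF1, CAF2, EC, CD206hi, CD206neg and CD206pos, and its neighbouring groups in the order of levels all overlapped.

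Other genes of the pathway were taken from a list of 109, of which 100 were in the matrix. Of the 8 interferon ligands listed, Ifnb1 (interferon beta) was the 1 in the matrix. The lowest sum of counts of any gene in the matrix was 72 over the 30 libraries. Genes absent from it, ligands and markers alike, therefore have no known level here. It was at 2.70, 4.41, 0.515, 0.226 and 0.219 CPM in CD206hi, 0, 3.91, 2.11, 0.624 and 4.02 in CD206pos and 3.91, 4.60, 8.64, 1.95 and 0.620 in CD206neg, had no count in any CAF2 or EC library, and was at 0.112 CPM in CAF1 of tumour 6 and 0 in the other CAF1 libraries. Its libraries in the 3 macrophage groups overlapped. Ifnar1, Ifnar2, Ifngr1 and Ifngr2, the subunits of the type I and type II receptors, were each at 30.5 CPM or more in all 30 libraries, while Ifnlr1, of the type III receptor, was at most 2.11 CPM and did not pass the filter on low counts. Ifnar1 was at 38.4 ± 6.34, 40.6 ± 1.63 and 44.0 ± 8.54 CPM (SD, n = 5) in CAF1, CAF2 and EC, and at 102 ± 28.5, 171 ± 26.8 and 114 ± 21.8 in CD206hi, CD206neg and CD206pos. Ifngr1 was at 143 ± 33.9, 169 ± 27.5 and 130.2 ± 14.6, and at 258 ± 82.1, 308 ± 54.1 and 275 ± 74.6 CPM in the same orders. Of 8 receptors and kinases tested, 6 were lower and 1 higher in fibroblasts than in macrophages, where 68.1% of all genes passed (30.8% lower and 37.3% higher).
Of the pathway genes tested, 4 were higher and 20 lower in CAF1 than in CAF2 (27.9% of 86, where 19.5% of all genes passed), the largest being Ifitm1 (log2 fold change 3.86 ± 0.58 SE, adjusted p = 0.00052) and Irf8 (log2 fold change 3.16 ± 0.41 SE, adjusted p = 0.000217) in the first direction and Ifi27l2a (log2 fold change -3.57 ± 0.50 SE, adjusted p = 0.00033) and Ly6a (log2 fold change -2.79 ± 0.55 SE, adjusted p = 0.00339) in the second. In CD206pos against CD206neg 21 were higher and 6 lower (28.1% of 96, where 14.7% of all genes passed), led by Ifitm3 (log2 fold change 3.34 ± 0.53 SE, adjusted p = 0.000413) and Mnda (log2 fold change 2.06 ± 0.46 SE, adjusted p = 0.00594), with Gbp5 lowest (log2 fold change -1.43 ± 0.35 SE, adjusted p = 0.0107). In fibroblasts against macrophages 18 were higher and 56 lower (74.7% of 99, near the 68.1% of all genes). Ifi205 (log2 fold change 8.02 ± 0.45 SE, adjusted p = 6.04e-16) and Socs1, an inhibitor of JAK kinases (log2 fold change 3.74 ± 0.28 SE, adjusted p = 4.73e-13), were higher, and Slfn2 (log2 fold change -7.76 ± 0.31 SE, adjusted p = 5.61e-19) and the sensor Aim2 (log2 fold change -7.71 ± 0.47 SE, adjusted p = 6.6e-14) lower. Of the 7 markers of T and NK cells, which make interferon gamma, 2 were in the matrix, and their sum was at most 5.59 CPM in any library. The gates were set for other cell types, so this sum does not show how many such cells the tumours held.

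Within tumours, the question is whether the members moved together from mouse to mouse, given that each tumour supplied all 6 populations. In edgeR's joint test of the 4 tumour terms with population in the fit, 16 of 35 members differed between tumours (45.7%), where 22% of all genes did. In the 15 macrophage libraries alone 5 of 35 did (14.3%, where 17.8% of all genes did), namely Ifit2, Oasl2, Bst2, Irf1 and Irf9. That count was unsteady: it was 15 without CD206neg of tumours 6 and 8 (42.9%, and 26.7% of all genes), 14 in DESeq2 (40%, and 28.4% of all genes), 0 without CD206hi or without CD206pos, and 1 to 7 with a tumour left out, namely 7 without tumour 10, 1 without tumour 11, 4 without tumour 5, 3 without tumour 6 and 6 without tumour 8. In the 10 fibroblast libraries 0 of 33 did (0% of all genes), with 5 members (15.2%) and 11% of all genes at an unadjusted p under 0.05, and DESeq2 called 2 members and 414 genes there. Of the variance of log2 CPM over the 30 libraries, tumour took a median of 20.7% over the members and 9.02% over all genes, and population 53.6% and 64.7%.
Bst2 gave the largest F statistic (18.2, adjusted p = 0.000104). It was at 25.4, 53.3, 28.5, 56.7 and 62.3 CPM in CAF1, 39.7, 62.8, 35, 66.2 and 64.2 in CAF2, 42.9, 73.6, 25.5, 72.4 and 66.5 in EC, 42.4, 70.6, 49.3, 78.5 and 75 in CD206hi, 54.8, 100, 58.8, 74.3 and 66.5 in CD206pos and 52.6, 123, 65.4, 72.6 and 122 in CD206neg. In all 6 populations tumours 6, 10 and 11 were above tumours 5 and 8. Next came Irgm1 (F = 10.5, adjusted p = 0.00135), Irf9 (9.41, 0.00222), Irf1 (8.34, 0.00366), Gbp7 (8.13, 0.00406), Ifit3 (7.97, 0.00444), Ifit2 (7.06, 0.0072) and Usp18 (6.89, 0.00788). The other 8 were Oasl2, Rtp4, Isg15, Gbp2, Ifi47, Dhx58, Ifit1 and Stat2. Of these, Stat2 lost its call without CD206neg of tumours 6 and 8. Bst2, Irgm1 and Irf9 kept their call under each of 17 alternatives. Without tumour 11 the count of 16 fell to 4. The joint test over all populations called 4 of 5 luminal epithelial, 3 of 3 myoepithelial and 3 of 4 MHC class II genes. Fibroblast and endothelial markers passed in 0 of 5 each, macrophage and pericyte markers in 1 of 5 each. Summed MHC class II genes were at 323, 1149, 766, 1571 and 3783 CPM in CD206hi and 7291, 56401, 15918, 38297 and 60555 in CD206pos. In CD206neg they were at 1286, 117979.6, 25842, 9777 and 14101. The part of these markers was not tested.

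Tumour 11 stood highest, and because this was seen in the data, each tumour was then compared with the mean of the other 4 as a description of that pattern. Averaged over the 6 populations, all 35 members were above the mean of the 5 tumours in tumour 11, by a median of 0.39 log2, where the median gene was at 0.03. For 27 of the 35 it was the highest tumour and for 0 the lowest. In single libraries of tumour 11, members above their population mean numbered 30 of 35 in CAF1, 29 in CAF2, 34 in EC, 31 in CD206hi, 31 in CD206neg and 29 in CD206pos. Against the other 4 tumours 9 members were higher and 0 lower (25.7%), where 0.683% of all genes were higher and 0.0514% lower. These were Usp18, Ifit3, Ifit2, Irf1, Ifi47, Gbp2, Irgm1, Rtp4 and Gbp7.
Usp18 was at 4.28, 11.2, 6.36, 8.57 and 12.4 CPM in CAF1, 14.4, 19.8, 12.7, 13.8 and 23.2 in CAF2, 13.6, 7.07, 9.11, 10.9 and 18.5 in EC, 11.9, 7.79, 12.2, 16.7 and 22.3 in CD206hi, 4.60, 8.91, 2.97, 6.37 and 20 in CD206pos and 11.4, 15.2, 13.4, 5.85 and 25.2 in CD206neg. Tumour 11 was the highest of the 5 in all 6 populations (log2 difference 1.03 ± 0.20 SE, adjusted p = 0.0171). Ifit3 was at 5.23, 5.05, 5.30, 5.82 and 12.6 CPM in CAF1, 8.77, 4.60, 7.89, 7.49 and 8.52 in CAF2, 3.63, 1.47, 5.03, 2.29 and 5.93 in EC, 4.80, 3.38, 10.4, 6.67 and 16.6 in CD206hi, 4.19, 3.70, 4.41, 7.61 and 10.3 in CD206pos and 10.1, 8.23, 11.3, 5.30 and 12.6 in CD206neg. In CAF2 tumour 5 was higher than tumour 11, and in the other 5 populations tumour 11 led (log2 difference 0.95 ± 0.19 SE, adjusted p = 0.0174). Irf1, whose values stand above for the fibroblasts and macrophages, was at 254, 213, 143, 185 and 293 CPM in EC, and tumour 11 was its highest tumour in all 6 populations (log2 difference 0.83 ± 0.15 SE, adjusted p = 0.0131).
Rtp4, a receptor transporter protein, was at 31.6, 29.6, 24.6, 34.5 and 49.6 CPM in CAF1, 52.5, 52.2, 48.1, 49.1 and 59.7 in CAF2, 57.1, 40.6, 57.4, 64.1 and 79.1 in EC, 59.6, 65.0, 34.4, 38.2 and 86.4 in CD206hi, 72.6, 53.3, 32.1, 65.0 and 78.6 in CD206pos and 26.2, 27.8, 27.5, 14.1 and 45.1 in CD206neg. Here too tumour 11 was highest throughout (log2 difference 0.63 ± 0.14 SE, adjusted p = 0.0286). Of the pathway genes outside the 35, 10 of 99 were higher in tumour 11 and 0 lower, (where 0.683% of all genes were higher), among them Ly6e (log2 difference 1.38 ± 0.23 SE, adjusted p = 0.00438), Iigp1 (log2 difference 1.61 ± 0.30 SE, adjusted p = 0.0134), H2-D1 (log2 difference 0.96 ± 0.19 SE, adjusted p = 0.0171) and B2m (log2 difference 0.92 ± 0.17 SE, adjusted p = 0.0131), the last 2 being parts of MHC class I. In tumour 5 2 members were higher and 2 lower (7.96% and 9.07% of all genes), in tumour 6 1 higher and 3 lower (5.69% and 2.84%), and in tumour 8 0 higher and 2 lower (2.87% and 3.12%). In tumour 10 edgeR called 0 members (0.0147% of all genes higher and 0% lower), DESeq2 also 0, with 5 of 35 at an unadjusted p under 0.05 (14.3%, and 14.9% of all genes).
The size of this pattern depends on the scaling of the libraries. With library totals alone 20 of 35 members were above 0, 1 was called, and their median was 0.04 while that of all genes was -0.39. In the reported fit the medians of this contrast were 0.49 and 0.03. TMM factors of the tumour 11 libraries were 0.691 in CAF1, 0.582 in CD206hi, 0.607 in CD206neg and 0.659 in CD206pos, against 0.973 to 1.48, 0.836 to 1.16, 0.548 to 1.14 and 0.731 to 1.21 in the other tumours. In CAF2 and EC tumour 11 was at 1.03 and 1.40, within the 0.964 to 1.24 and 1.27 to 1.67 of the others. The CD206neg library of tumour 11 also lay within the range of the others. Without the population CD206hi 0 members were called, without CAF1 or CD206pos 1 each, without CD206neg 2, without CAF2 7 and without EC 9, while 32 to 35 of the members stayed above 0. Calls over all genes changed too, from 93 higher in the reported fit to 3 without CD206hi, 28 without CAF1 and 15 without CD206pos. They were 26 without CD206neg, 82 without CAF2 and 149 without EC. Summed fibroblast markers in CAF1 were at 152689.8 CPM in tumour 11 and 16042 to 57322 CPM in the other tumours, and summed macrophage markers in CD206hi at 25544 and 7108 to 16597 CPM. T and NK cell markers were at most 1.13 CPM in tumour 11, in gates set for other cell types. The part of the scaling factors and of these markers in the pattern was not tested.

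**Figure D5:**
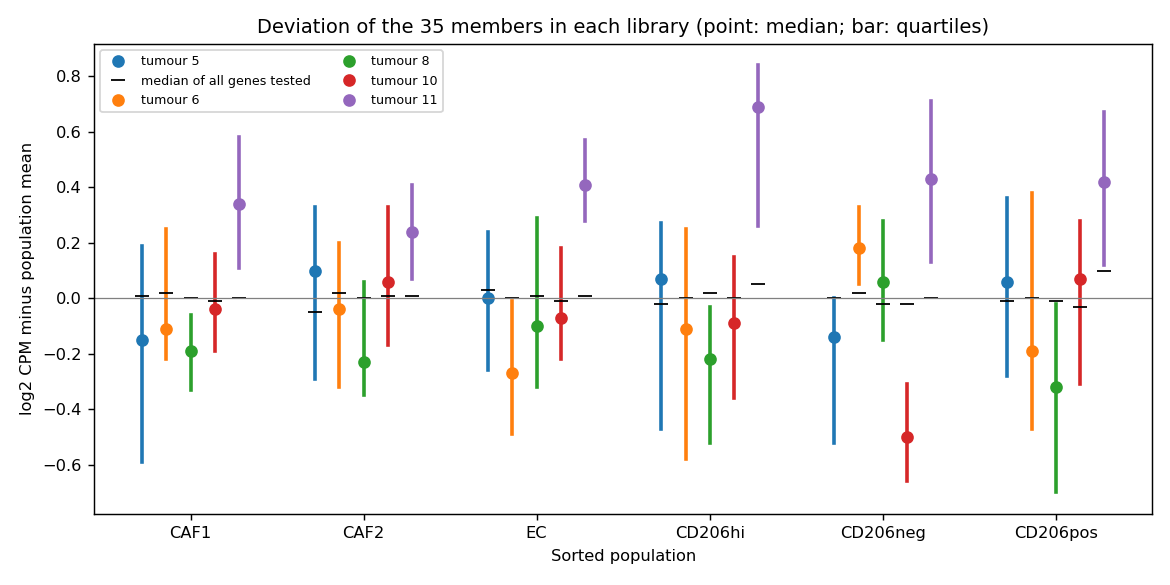
Deviation of the 35 members from their mean in each population (log2 CPM, TMM-scaled), as the median (point) and quartiles (bar) of each library, with the median of all genes as a dash. Tumour 11 has the highest point in all 6 populations (0.24 to 0.69); scaled by library totals alone, 20 of 35 members were above 0 in tumour 11.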

How the data were processed

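Bulk RNA-seq was measured in 30 libraries, 6 sorted populations from each of 5 mice, made from full-length cDNA with SMARTseq v4 per the labels' protocols. The authors deposited a matrix of raw counts per gene. Their second deposited matrix holds a normalised signal, the counts divided by 1 size factor per library, and served only an alternative with limma 3.58.1. Reads were processed with Trimmomatic 0.36, HISAT2 2.0.4, SAMtools 1.3.1 and DESeq2 1.26 on mm10, per the submitters' processing notes. The sources used here do not name the counting tool, strand setting or annotation.

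The members, gene lists and tests were chosen with earlier results of these data known. After filterByExpr and TMM scaling, counts were tested in edgeR 4.0.16 (R 4.3.3), quasi-likelihood F test, adjusted p under 0.05 (Benjamini-Hochberg) over all genes tested. Fibroblasts were fitted alone (12149 genes), macrophages alone (11052 genes), and lineages and tumours over all 30 libraries (13610 genes). SE is the absolute log2 fold change over the square root of F. CPM uses TMM-scaled totals, and log2 CPM for deviations has a prior count of 2. Named by statistics are up to 8 passing members per direction with the largest log2 fold change (tumour test: smallest p), and up to 4 pathway genes. Each contrast of 1 tumour with the other 4 was added after seeing the data. The scripts were tested on simulated data for CAF1 against CAF2, CD206hi against CD206neg, EC against CAF2 and the joint tumour test. In that order, 31%, 33%, 31% and 50% of 2-fold changes and 78%, 81%, 69% and 78% of 4-fold changes were found. False genes were 5.22%, 3.39%, 6.54% and 11.1% of the calls, so the joint tumour test exceeded its nominal rate the most. Members that did not pass may therefore still differ by 2-fold. Libraries from the same tumour come from 1 animal, and their deviations correlated at 0.0239 to 0.385 in fibroblasts, 0.107 to 0.643 in macrophages and 0.0213 to 0.574 over all populations. Alternatives were a tumour block, other scalings and filters, DESeq2 1.42.0 and libraries left out. No pair of libraries of a group agreed within sampling noise (lowest chi-square per degree of freedom 26.3 over 60 pairs).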

Additional observations from a re-analysis of the deposited data

Results flagged for a closer look

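In 12 of the 210 sets of 5 libraries (35 members in 6 populations), 1 library stood apart from the other 4 by more than the 95% limit for its gap over the range of log2 CPM (0.71). That is 5.71% of the sets, and chance flags about 1 in 20. Tumour 11 was high in 4 of them: Ifit3 in CAF1 at 12.6 CPM (5.05 to 5.82 in the others), Stat2 in CD206hi at 35.4 CPM (15.7 to 16.7), Gbp2 in CD206pos at 30.1 CPM (13.5 to 15.7), and Oas3 in CAF1 at 0.177 CPM, a single count where the others had 0. Tumour 6 accounted for 4: Ifit3 in CAF2 was low at 4.60 CPM (7.49 to 8.77 in the others), Tap1, a subunit of the peptide transporter for MHC class I, was low in CD206hi at 15 CPM (23.9 to 26.5), and Oas3 had 0.364 CPM in CAF2 and 0.196 in EC, 3 and 2 counts where the others had 0. In CAF2 of tumour 5 Oas1a was low at 12.3 CPM (20.3 to 24.4 in the others) and Ifih1, the RNA sensor MDA5, was at 0 CPM (3.64 to 5.46). Cmpk2 was low in CAF1 of tumour 10 at 0.220 CPM (1.88 to 2.48), and Zbp1 was low in CD206pos of tumour 8 at 17.6 CPM (25 to 27.2).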

How the results depend on the processing

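For the 110 results in which a member passed, 3856 alternatives were computed: 3472 kept the call, 383 lost it and 1 reversed. The reversal was Irf7 in EC against TAM, at 0.28 log2 with library totals alone (adjusted p = 0.264). Every other alternative kept its direction, except that the joint tumour tests have none. Leaving out 1 library or tumour gave 21 to 23 members in CAF against TAM, 5 to 10 in CAF1 against CAF2, 2 to 5 in CD206hi against CD206neg, 3 to 8 in CD206pos against CD206neg, 0 to 0 in CD206hi against CD206pos, 10 to 14 in EC against CAF1, 11 to 16 in EC against CAF2 and 16 to 19 in EC against TAM. It gave 4 to 16 in the tumour test over all populations, 1 to 7 in macrophages, 0 to 0 in fibroblasts, and 3 to 7 higher in tumour 11. With a 2-fold minimum, 11 members passed in CAF against TAM, 4 in CAF1 against CAF2 and 7 in EC against CAF1, and with all 30 libraries fitted 5 in CAF1 against CAF2. With tumour as a block 11 passed in CD206pos against CD206neg. The block lost the calls on Ifih1 in CAF against TAM (adjusted p = 0.0527) and Irf7 in CAF1 against CAF2 (0.0648), and no other member's call. Over all genes it gave 1790 calls in CD206hi against CD206neg, 2800 in CD206pos against CD206neg and 97 in CD206hi against CD206pos. Without CD206neg of tumours 6 and 8, 2 members passed in CD206hi against CD206neg and 15 in the macrophage tumour test. That test gave 14 with DESeq2, 8 with library totals, 8 without a filter, 0 without CD206hi, 10 without CD206neg and 0 without CD206pos. The tumour test over all populations gave 10 without CAF1, 7 without CD206hi and 10 without CD206pos, and the fibroblast tumour test gave 2 with DESeq2. Leaving out a population of the fibroblast tumour test was not run, as it leaves no residual degrees of freedom. Members higher in tumour 11 numbered 1 with library totals, 1 without CAF1, 0 without CD206hi, 2 without CD206neg and 1 without CD206pos. Over all genes 41, 28, 3, 26 and 15 were higher under the same settings, and 93 in the reported fit. Where a count of members is given here or above without the share of all genes under the same setting, its change cannot be read as particular to the members. Other causes of these changes were not tested. Depth limits Oas3 and Mx1 outside macrophages, where no library exceeded 8 counts.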
